A study of Mus musculus with 18 samples.

Results

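The common gamma chain receptor family is described here through 9 genes, Il2ra, Il2rb, Il2rg, Il4ra, Il7r, Il9r, Il15ra, Il21r and Jak3, of 45706 genes listed for each of 18 RNA-seq libraries. They were chosen by symbol as the receptor chains of the cytokines that signal through the common gamma chain, plus the kinase bound to that chain, with earlier results of these data known. All 18 libraries came from cultures of OT-I CD8+ T cells, mouse cells with a transgenic T cell receptor for a peptide of ovalbumin (OVA). Repeat peptide stimulated cells received 10 ng/ml OVA peptide daily for 5 days and were kept with peptide until day 8, a culture model of T cell exhaustion. Single peptide stimulated cells saw the peptide for 48 h, followed by 3 days without it. Treatment ran from day 5 until harvest on day 8, with 1 µM of ibrutinib, an inhibitor of BTK and other Tec family kinases, or with DMSO, its solvent. The groups were repeat peptide with DMSO (n = 4), repeat peptide with ibrutinib (n = 5), single peptide with DMSO (n = 5) and single peptide with ibrutinib (n = 4). According to the labels, IL-15 and IL-7, both of them ligands of this receptor family, were present in the cultures of every group, so no group shows these genes in cells without such cytokines. The experiment of origin, lettered A to F, was taken from the genotype entry of the labels. All 4 groups are represented in experiments A to D, whereas E contributed just 1 library (repeat peptide, ibrutinib), as did F (single peptide, DMSO). The strain is listed as wild type for all libraries, but the genotype entry for B to E also names a btk knockout, and it was read as the name of an experiment because the study describes its RNA-seq without btk deficient cells. Animal ages are not given in the sources used here.

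Cytokines of this family (IL-2, IL-4, IL-7, IL-9, IL-15 and IL-21) bind a private receptor chain that pairs with the common gamma chain, encoded by Il2rg. IL-2 and IL-15 also share the beta chain encoded by Il2rb. The kinase JAK3 sits on the common gamma chain and JAK1 on its partners, and together they activate STAT factors, mainly STAT5, STAT6 or STAT3. In CD8+ T cells the IL-7 receptor is known as a marker of resting and memory cells, and the IL-2 receptor alpha chain as a marker of recent activation.

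The cells carried the markers of CD8+ T cells, with a summed level of Cd3d, Cd3e, Cd3g, Cd8a and Cd8b1 between 2258 and 3152 TPM (transcripts scaled to library total and gene length) in the 18 libraries. Cd4 reached at most 2 counts. Among markers of other cells, the NK cell list (Ncr1 and Klrb1c) summed to 2.64 to 11.4 TPM with DMSO and 2.69 to 25.6 TPM with ibrutinib in repeat peptide cells, against 0.59 to 2.63 and 1.22 to 2.73 TPM in single peptide cells. Foxp3, the factor of regulatory T cells, was at 0 to 0.08 TPM in repeat peptide DMSO libraries and at 0.77 to 5.55 TPM in single peptide DMSO libraries. Zbtb7b of the same list went the other way, at 15.3 to 20.7 against 1.0 to 5.6 TPM. Ikzf4 overlapped, at 5.69 to 9.73 against 4.84 to 8.51 TPM. The sum of that list was 21.3 to 29.1 TPM in repeat and 7.88 to 17.6 TPM in single peptide DMSO libraries. Summed levels of the B cell, myeloid, dendritic cell and erythroid lists stayed at or under 8.49 TPM in every library. The mast cell and ILC2 list, led by Gata3, which T cells also express, summed to 5.74 to 14.4 TPM, and the CD4 and regulatory T cell list to 5.99 to 34.4 TPM. These were bulk libraries, in which fewer cells of a type and less RNA per cell cannot be told apart.

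Levels were compared between genes in TPM, the deposited unit that accounts for gene length. Il2rg was the most abundant member in 3 of 4 groups, at 649 ± 121 TPM (SD, n = 5) in single peptide DMSO cells and 479 ± 37.6 TPM (SD, n = 4) in repeat peptide DMSO cells. Il2rb took the first place in repeat peptide DMSO cells, at 644 ± 33.8 TPM (SD, n = 4). Il15ra and Il9r were the 2 lowest members in every group. The mean of Il15ra lay between 13.3 and 22.8 TPM and that of Il9r between 0.02 and 0.838 TPM. The remaining 5 members had group means from 41.9 TPM (Il4ra, repeat peptide DMSO) to 159 TPM (Il2ra, repeat peptide DMSO).

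**Figure D1:**
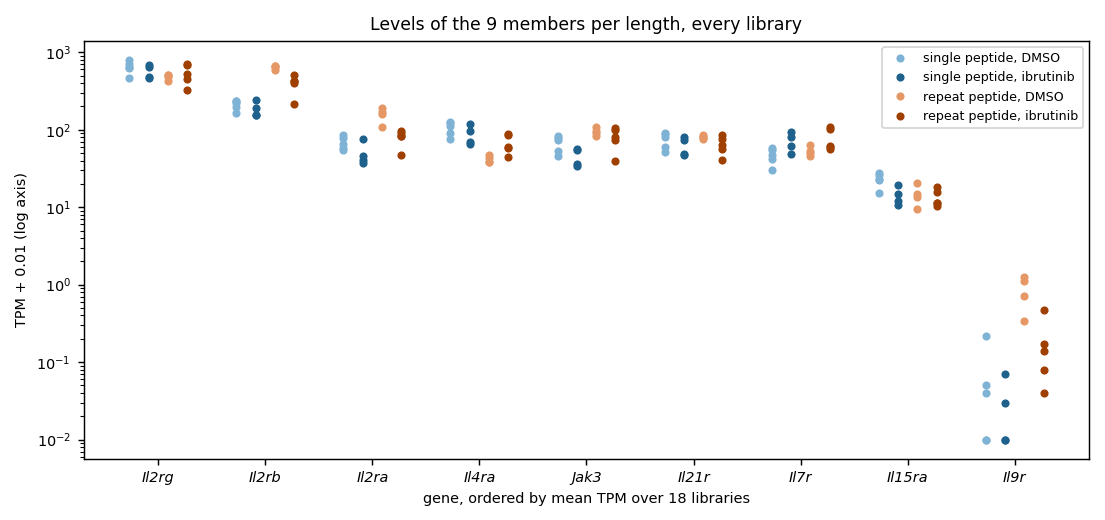
TPM of the 9 genes in every library, on a log axis after adding 0.01, ordered by their mean over 18 libraries. Each point is a library and colours mark the 4 groups. Il2rg and Il2rb lie highest, Il15ra lies below the other well detected members, and Il9r lies lowest, with its highest points among repeat peptide libraries.

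Differences between groups are given on normalized counts, the rounded expected counts scaled by TMM to a library of average size, since TPM carried a shift per library of -0.41 to 0.26 on the log2 scale relative to them. A gene was called at an adjusted p under 0.05 in edgeR's quasi-likelihood test over 12255 genes, provided that its log2 fold change exceeded 0.2 in size and its normalized counts averaged 50 or more. All 9 members passed the filter on low counts, Il9r through its counts in repeat peptide cells.

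**Figure D2:**
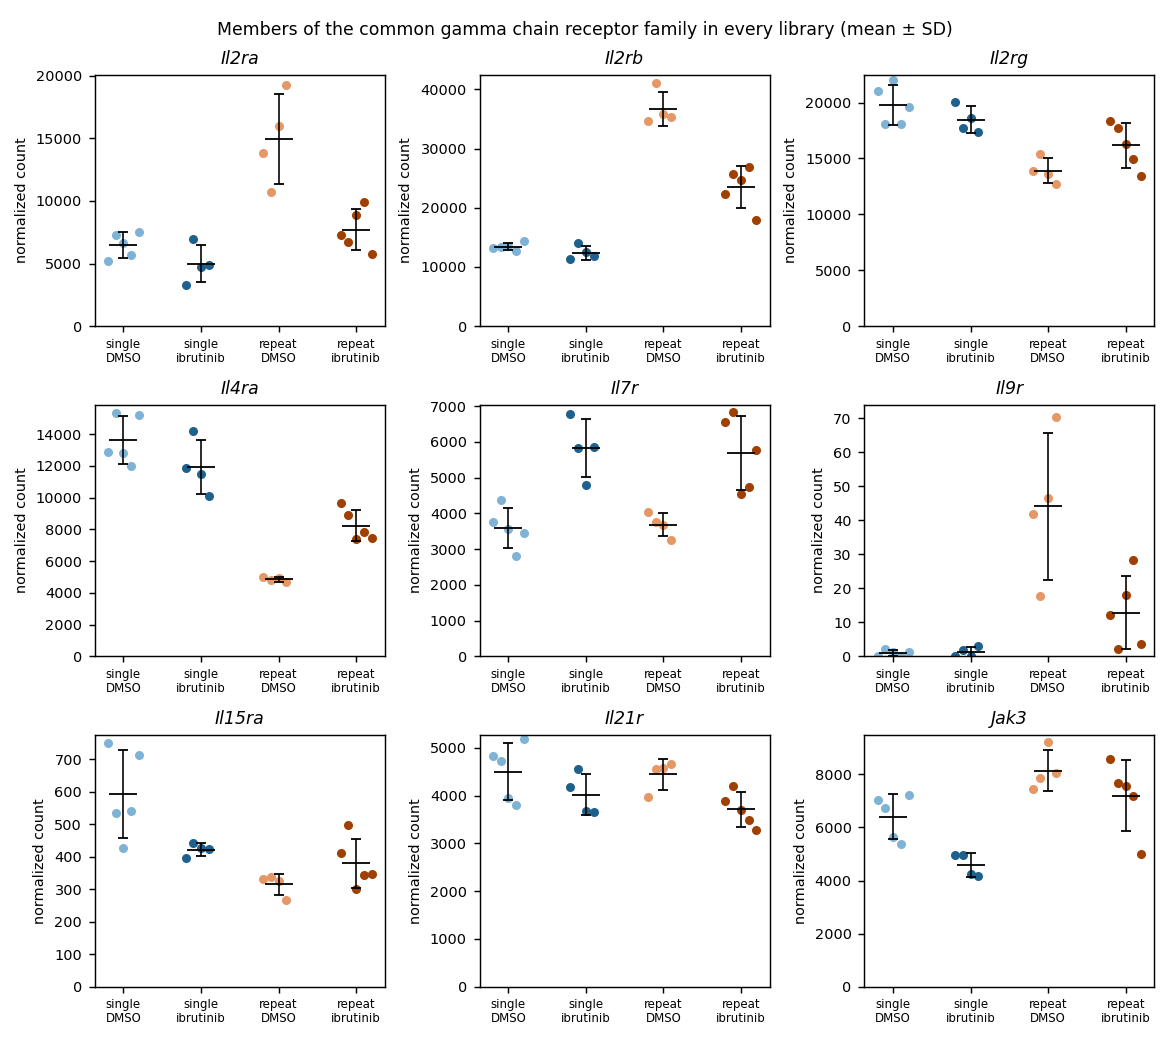
Normalized counts of each gene in the 18 libraries, with 1 panel per gene and a linear axis from 0. Points are libraries, the long bar is the group mean and the whiskers are 1 SD. Il2ra and Il2rb are highest in repeat peptide DMSO libraries, Il4ra is lowest there, and Il7r is higher with ibrutinib than with DMSO under both stimulations.

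Il2rg (ENSMUSG00000031304, chrX:101264378-101268255 in GRCm38, minus strand), the shared chain of all 6 receptors, had lower levels in repeat than in single peptide cells. Its normalized counts in repeat peptide DMSO libraries were 13867, 15371, 13628 and 12742 in experiments A, B, C and D. Those of single peptide DMSO libraries A, B, C, D and F were 21048, 18062, 22040, 18107 and 19568. The ranges did not overlap, and every repeat peptide library was the lower one of its experiment. The difference was -0.51 ± 0.11 (log2 fold change ± SE, edgeR adjusted p = 0.000604), a 1.42-fold lower level, and limma on log2(TPM + 1) did not call it (-0.42, adjusted p = 0.105). With ibrutinib, repeat peptide libraries held 13419 to 18372 normalized counts and overlapped the 17405 to 20074 of single peptide libraries, and the log2 fold change between them was -0.19 with a 95% interval from -0.40 to 0.01. In repeat peptide cells ibrutinib libraries were above the DMSO library in 4 of 4 experiments, by 0.21 to 0.41 on the log2 scale. That comparison was not called without a block (log2 fold change 0.22 ± 0.11, edgeR adjusted p = 0.24) and was called with the experiment as a block (0.28 ± 0.08, edgeR adjusted p = 0.0341).

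Jak3 (ENSMUSG00000031805, chr8:71676296-71690575, plus strand), the kinase bound to that chain, was higher in repeat than in single peptide cells. Normalized counts were 7456, 7852, 9237 and 8054 in repeat peptide DMSO libraries A to D. Single peptide DMSO libraries A, B, C, D and F held 7054, 6723, 5641, 5394 and 7240. The ranges did not overlap, but the gap between them was small, and the difference of 0.35 ± 0.13 on the log2 scale (edgeR adjusted p = 0.0334) was lost on leaving out repeat peptide DMSO library C (0.28, edgeR adjusted p = 0.114) or D (0.35, edgeR adjusted p = 0.0589), or single peptide DMSO library C (0.30, edgeR adjusted p = 0.0742) or D (0.29, edgeR adjusted p = 0.0788). It was also lost with no filter on low counts (edgeR adjusted p = 0.0544) and by limma on log2(TPM + 1) before and after TMM rescaling (adjusted p = 0.103 and 0.0502). With ibrutinib the difference between stimulations was 0.65 ± 0.13 (edgeR adjusted p = 0.000756), with single peptide libraries A to D at 4956, 4978, 4232 and 4174 and repeat peptide libraries A to E at 8581, 7691, 7560, 7193 and 4995. Library E was the lowest of the latter and lay just above the highest single peptide ibrutinib library. In single peptide cells the ibrutinib library was the lower one in 4 of 4 experiments, by 0.37 to 0.51 on the log2 scale. This did not pass the threshold without a block (log2 fold change -0.48 ± 0.13, edgeR adjusted p = 0.0561) and passed it with the experiment as a block (-0.43 ± 0.09, edgeR adjusted p = 0.00578), with DESeq2's size factors (edgeR adjusted p = 0.0404), by DESeq2's Wald test (adjusted p = 0.00888) and without experiments E and F (edgeR adjusted p = 0.0245). In repeat peptide cells the ibrutinib difference of Jak3 was -0.18 with a 95% interval from -0.44 to 0.08. Counts of Jak3 are not whole in any library, because RSEM divided some reads among genes. It overlaps Insl3 on the same strand, which reached at most 84.9 counts.

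Per length, Il2rg was 9.87 ± 1.37 times as abundant as Jak3 in single peptide DMSO cells (SD over 5 libraries) and 5.12 ± 0.673 times in repeat peptide DMSO cells (SD over 4 libraries). Ratios of TPM within a library do not carry the shift per library. With ibrutinib the ratio was 12.8 ± 0.953 in single peptide cells (SD over 4 libraries) and 6.88 ± 0.804 in repeat peptide cells (SD over 5 libraries).

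Il2rb (ENSMUSG00000068227, chr15:78479256-78495271, minus strand), the beta chain of the IL-2 and IL-15 receptors, was the member with the largest rise on repeat stimulation among those called. Repeat peptide DMSO libraries A to D held 34656, 41017, 35909 and 35394 normalized counts. Single peptide DMSO libraries A, B, C, D and F held 13155, 13432, 13617, 12730 and 14329. Every repeat peptide library was above every single peptide library, with a log2 fold change of 1.45 ± 0.11 (edgeR adjusted p = 1.19e-08), or 2.73-fold. Ibrutinib lowered Il2rb in repeat peptide cells, where libraries A to E held 22360, 25786, 24669, 26805 and 17878, all under the DMSO libraries and all above the single peptide libraries. It fell by 0.65 ± 0.11 on the log2 scale (edgeR adjusted p = 0.00183), in 4 of 4 experiments. The single peptide ibrutinib libraries A to D were at 11353, 14053, 12556 and 11770, and the difference from DMSO was -0.11 with a 95% interval from -0.34 to 0.11. The ibrutinib effects on Il2rb under both stimulations differed by -0.53 ± 0.16, which was not called without a block (edgeR adjusted p = 0.129) and was called with the experiment as a block (-0.47 ± 0.11, edgeR adjusted p = 0.0194) and by DESeq2's Wald test without a block (-0.52, adjusted p = 0.0312). NK cells also express Il2rb. Their marker Klrb1c was 3.46-fold higher in repeat than in single peptide DMSO cells (edgeR adjusted p = 0.0109). Ncr1, at or under 1.16 TPM in all libraries, went the other way. It was at 0 to 0.03 TPM in repeat and 0 to 1.16 TPM in single peptide DMSO libraries and was not called. The part of NK cells in the result was not tested.

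The plot of DMSO and ibrutinib libraries by experiment shows the 4 members called for ibrutinib in repeat peptide cells. Il7r was also called in single peptide cells, and the difference between the effects under both stimulations is given for each gene.

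**Figure D3:**
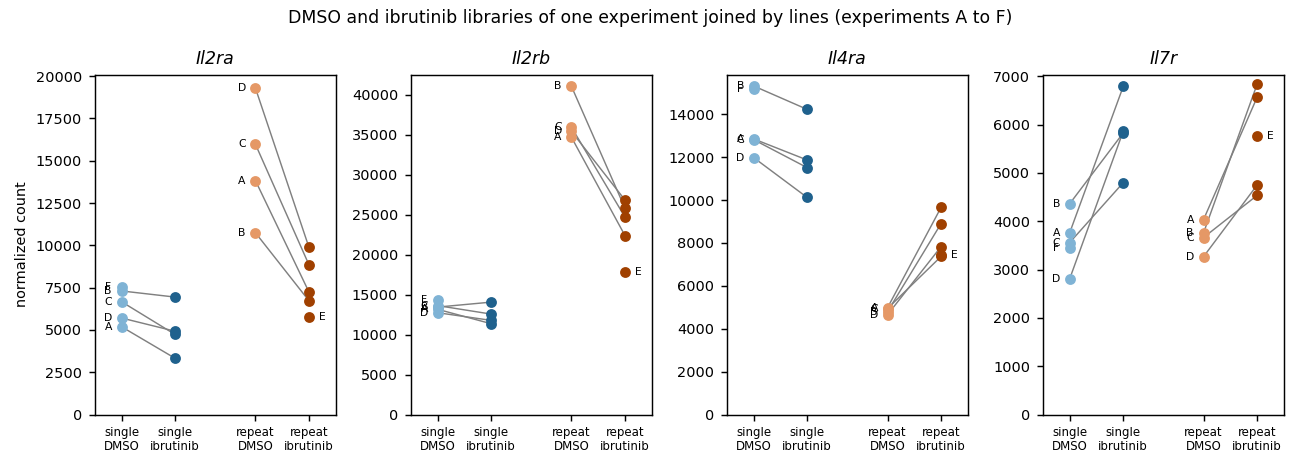
Normalized counts of Il2ra, Il2rb, Il4ra and Il7r, with a grey line joining the DMSO and ibrutinib libraries of the same experiment (A to D). Libraries E and F have no partner and no line. The lines of repeat peptide cells go down for Il2ra and Il2rb and up for Il4ra and Il7r in all 4 experiments.

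The alpha chains of the IL-2 and IL-15 receptors are encoded by neighbouring genes on the same strand, with 12096 bases between them. The bases just before each start are shown because the neighbours differed in the direction of their change with repeat stimulation. Sequences come from RefSeq (GRCm38.p6, plus strand), at chr2:11642542-11642791 for Il2ra and chr2:11705043-11705289 for Il15ra. Capitals mark matches, on either strand, to 6 motifs: the STAT motif (GAS) TTCNNNGAA, the NF-kB motif (GGG and CCC separated by 4 bases), the ETS motif AGGAAGT, the T-box motif AGGTGT, the NFAT motif TGGAAA and the FOXO motif GTAAACA.
Il2ra: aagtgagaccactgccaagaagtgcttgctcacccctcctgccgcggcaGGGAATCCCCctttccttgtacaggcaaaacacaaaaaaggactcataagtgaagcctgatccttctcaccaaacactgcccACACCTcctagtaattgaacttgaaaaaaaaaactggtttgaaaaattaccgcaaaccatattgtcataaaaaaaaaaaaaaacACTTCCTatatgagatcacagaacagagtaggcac
Il15ra: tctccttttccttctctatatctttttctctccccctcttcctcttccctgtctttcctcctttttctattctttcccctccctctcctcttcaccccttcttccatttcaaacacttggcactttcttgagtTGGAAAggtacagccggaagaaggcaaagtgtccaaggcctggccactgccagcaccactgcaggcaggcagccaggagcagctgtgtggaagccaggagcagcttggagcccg
The Il2ra window held an NF-kB, a T-box and an ETS match, in this order, with no overlap between them. The Il15ra window held 1 NFAT match. Among 32851 windows of 250 bases before a start in the same table, 10.3% held the NF-kB motif, 11.8% the T-box motif, 7.69% the ETS motif, 18.6% the NFAT motif, 7.02% the GAS motif and 3.17% the FOXO motif. A match is only a description of these letters. The Il15ra window was cut to 247 bases, to end before the GENCODE start. The table matched 8 of the 9 members, all but Il2rb, and for Il7r it left no bases before the GENCODE start.

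Il2ra (ENSMUSG00000026770, chr2:11642807-11693193, plus strand) rose with repeat stimulation and fell with ibrutinib. Its normalized counts were 13829, 10745, 15976 and 19296 in repeat peptide DMSO libraries A to D. Single peptide DMSO libraries A, B, C, D and F held 5189, 7305, 6668, 5706 and 7548. The ranges did not overlap, and the log2 fold change was 1.21 ± 0.20 (edgeR adjusted p = 6.96e-05), or 2.31-fold. In repeat peptide ibrutinib libraries A to E the counts were 7240, 6723, 8849, 9881 and 5784. All of them were under the lowest DMSO library, and Il2ra fell by 0.96 ± 0.20 on the log2 scale (edgeR adjusted p = 0.00684), or 1.94-fold, in 4 of 4 experiments. The repeat peptide ibrutinib libraries overlapped single peptide DMSO libraries, with a difference of 0.25 and a 95% interval from -0.12 to 0.62. Among single peptide cells, ibrutinib libraries A to D held 3324, 6942, 4731 and 4923, each lower than the DMSO library of its experiment. The log2 fold change there was -0.38 with a 95% interval from -0.78 to 0.02 and was not called (edgeR adjusted p = 0.445). The effects under the 2 stimulations differed by -0.58 ± 0.28, which was not called (edgeR adjusted p = 0.455).

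Il15ra (ENSMUSG00000023206, chr2:11705290-11734317, plus strand), which holds and presents IL-15, was lower in repeat than in single peptide DMSO cells. Repeat peptide DMSO libraries A to D held 330, 337, 323 and 267 normalized counts. Single peptide DMSO libraries A, B, C, D and F held 750, 533, 426, 541 and 713. The ranges did not overlap, and the log2 fold change was -0.91 ± 0.17 (edgeR adjusted p = 0.000182). With ibrutinib the repeat peptide libraries A to E held 411, 496, 301, 342 and 346, and the single peptide libraries A to D 395, 440, 428 and 422. These ranges overlapped, and the difference was -0.15 with a 95% interval from -0.48 to 0.17. The effect of ibrutinib was 0.27 ± 0.17 in repeat peptide cells (edgeR adjusted p = 0.365) and -0.49 ± 0.17 in single peptide cells (edgeR adjusted p = 0.144), and their difference of 0.76 ± 0.24 did not pass the threshold (edgeR adjusted p = 0.143). DESeq2's Wald test called the single peptide effect (adjusted p = 0.0466) and the difference of effects (adjusted p = 0.0426). With an offset for the deposited effective length, which varied from 728 to 1246 bases between libraries for this gene of 18 transcripts, the effect in repeat peptide cells was -0.01.

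Il7r (ENSMUSG00000003882, chr15:9505788-9530176, minus strand), the receptor chain for IL-7, was not called between the stimulations but was higher with ibrutinib under both. Repeat peptide DMSO libraries A to D held 4035, 3759, 3663 and 3267 normalized counts. Single peptide DMSO libraries A, B, C, D and F held 3761, 4362, 3558, 2808 and 3453. The ranges overlapped, and the log2 fold change was 0.04 with a 95% interval from -0.24 to 0.31. With ibrutinib the repeat peptide libraries A to E held 6564, 6834, 4535, 4748 and 5772, all above the DMSO libraries. Il7r rose by 0.63 ± 0.14 on the log2 scale (edgeR adjusted p = 0.0105), or 1.55-fold. Single peptide ibrutinib libraries A to D held 6789, 5828, 4798 and 5862, again all above their DMSO libraries. The rise was 0.70 ± 0.14 (edgeR adjusted p = 0.00899), or 1.62-fold. Within experiments the rise was 0.31 to 0.86 in repeat and 0.42 to 1.06 in single peptide cells, with 4 of 4 experiments higher in each. The difference of the 2 effects was -0.07 with a 95% interval from -0.45 to 0.31. The call was lost on leaving out repeat peptide DMSO library D (0.59, edgeR adjusted p = 0.0522) or single peptide ibrutinib library A (0.60, edgeR adjusted p = 0.0633), and by limma on log2(TPM + 1) (0.49 and 0.60, adjusted p = 0.277 and 0.346), but not by the same test after TMM rescaling of the TPM values.

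Per length, Il7r was at 0.349 ± 0.0973 of the level of Il2ra in repeat peptide DMSO cells (SD over 4 libraries) and at 0.688 ± 0.164 in single peptide DMSO cells (SD over 5 libraries). With ibrutinib the ratio was 1.01 ± 0.323 in repeat peptide cells (SD over 5 libraries) and 1.53 ± 0.671 in single peptide cells (SD over 4 libraries). In repeat peptide cells no library overlapped between DMSO, at 0.235 to 0.457, and ibrutinib, at 0.639 to 1.32.

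Il4ra (ENSMUSG00000030748, chr7:125552120-125579474), the receptor chain for IL-4, and Il21r (ENSMUSG00000030745, chr7:125603429-125633570), the chain for IL-21, are also neighbours on the plus strand, with 23954 bases between them. Their RefSeq sequences before the start are shown because Il4ra changed with both stimulation and ibrutinib while Il21r differed less. The window of Il4ra, chr7:125552021-125552119 in GRCm38.p6, ends just before the GENCODE start of the gene, is only 99 bases long and held no match to the same 6 motifs. That of Il21r, chr7:125603179-125603428, is 250 bases long and held 1 FOXO match, in capitals, so the windows cannot be compared in their matches.
Il4ra: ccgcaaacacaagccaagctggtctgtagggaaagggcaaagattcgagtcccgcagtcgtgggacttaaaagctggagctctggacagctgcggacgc
Il21r: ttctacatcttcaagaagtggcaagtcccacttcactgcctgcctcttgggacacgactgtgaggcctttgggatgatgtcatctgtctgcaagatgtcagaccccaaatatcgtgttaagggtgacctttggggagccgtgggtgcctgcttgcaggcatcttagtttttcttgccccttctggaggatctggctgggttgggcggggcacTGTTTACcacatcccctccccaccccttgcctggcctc

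Il4ra had the largest fall on repeat stimulation among the members. Repeat peptide DMSO libraries A to D held 4978, 4798, 4941 and 4655 normalized counts, the tightest group of this gene. Single peptide DMSO libraries A, B, C, D and F held 12852, 15319, 12818, 11980 and 15179. The log2 fold change was -1.49 ± 0.12 (edgeR adjusted p = 1.07e-08), or 2.81-fold lower. Repeat peptide ibrutinib libraries A to E held 9657, 8902, 7369, 7828 and 7457, which lay above every repeat peptide DMSO library and below every single peptide library. Il4ra rose by 0.77 ± 0.11 with ibrutinib (edgeR adjusted p = 0.000461), or 1.70-fold, in 4 of 4 experiments. In single peptide cells the ibrutinib libraries A to D held 11867, 14228, 11511 and 10121, each lower than the DMSO library of its experiment by 0.11 to 0.24 on the log2 scale. The log2 fold change was -0.19 with a 95% interval from -0.41 to 0.03. Il4ra was the only member for which the difference between the 2 ibrutinib effects was called without a block (0.96 ± 0.16, edgeR adjusted p = 0.00324). Limma on log2(TPM + 1) did not call the rise in repeat peptide cells (0.64, adjusted p = 0.107) or the difference of effects (0.93, adjusted p = 0.228), but did after TMM rescaling of the TPM values. Il4ra overlaps the antisense gene Gm44876, and whether reads were counted by strand is not given in the sources used here.

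Il21r overlapped between the stimulations with DMSO, at 3971, 4559, 4583 and 4665 normalized counts in repeat peptide libraries A to D and at 3801 to 5175 in single peptide libraries (median 4729). The log2 fold change was -0.02 with a 95% interval from -0.22 to 0.19. Ibrutinib libraries held 3272 to 4208 in repeat and 3651 to 4551 in single peptide cells. Every ibrutinib library was below the DMSO library of its experiment, by 0.03 to 0.42 in repeat and 0.06 to 0.21 in single peptide cells on the log2 scale. Neither effect was called, with log2 fold changes of -0.26 ± 0.11 (edgeR adjusted p = 0.152) and -0.16 ± 0.11 (edgeR adjusted p = 0.565).

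Il9r (ENSMUSG00000020279, chr11:32187541-32200279, minus strand), the IL-9 receptor chain, was near the detection limit. Repeat peptide DMSO libraries A to D held 41.9, 17.8, 46.4 and 70.4 normalized counts, and ibrutinib libraries A to E held 12.1, 2.28, 17.9, 28.4 and 3.57. No single peptide library exceeded 3.08. The repeat peptide DMSO libraries thus lay above all single peptide libraries, but the gene passed the filter on low counts through that group, so no test of the difference is given. The mean over all libraries is under the minimum of 50, so the gene was not called, and no fold is given against libraries at 0 to 3 counts. In repeat peptide cells the ibrutinib library was the lower one in 4 of 4 experiments. That comparison includes the group through which the gene passed the filter, so no test of it is given either.

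Counted over the family, 6 of 9 members were called between repeat and single peptide cells with DMSO, against 47% of all genes tested. Il2ra, Il2rb and Jak3 were higher and Il2rg, Il4ra and Il15ra lower in repeat peptide cells. With ibrutinib 4 members were called between the stimulations, against 38.4% of all genes tested, with Il2ra, Il2rb and Jak3 higher and Il4ra lower. With 9 genes, both counts are near the background. The fitted differences were 1.89-fold for Il2rb, 1.55-fold for Il2ra, 1.57-fold for Jak3 and 1.45-fold (lower) for Il4ra. That of Il2ra (edgeR adjusted p = 0.0185) was lost on leaving out repeat peptide ibrutinib library D (0.52, edgeR adjusted p = 0.0568) or single peptide ibrutinib library A (0.50, edgeR adjusted p = 0.0685). That of Il4ra was lost by limma on log2(TPM + 1) (-0.37, adjusted p = 0.211).

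In repeat peptide cells ibrutinib changed 4 of 9 members, against 5.92% of all genes tested. Il4ra and Il7r rose and Il2ra and Il2rb fell. The median absolute log2 fold change was 0.63 over the members and 0.20 over all genes tested. The former includes Il9r, which passed the filter through the DMSO group of this comparison. The median over the members is lower without Il9r, so it is not compared with that over all genes. In single peptide cells 1 of 9 members, Il7r, was called, against 3.04% of all genes tested. The median absolute log2 fold change there was 0.37 over the members and 0.15 over all genes. The former is the value of Il9r itself (SE 1.20), fitted on libraries with 0 to 3 counts, so it is not compared with the latter. The difference between the 2 effects was called for 1 of 9 members, Il4ra, against 1.26% of all genes tested. With the experiment as a block, which raised the genes called over all genes to 1694, 1114 and 679 in these 3 comparisons (from 726, 373 and 154), the members called were 5, 2 and 2. All 4 calls in repeat peptide cells held without experiments E and F.

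**Figure D4:**
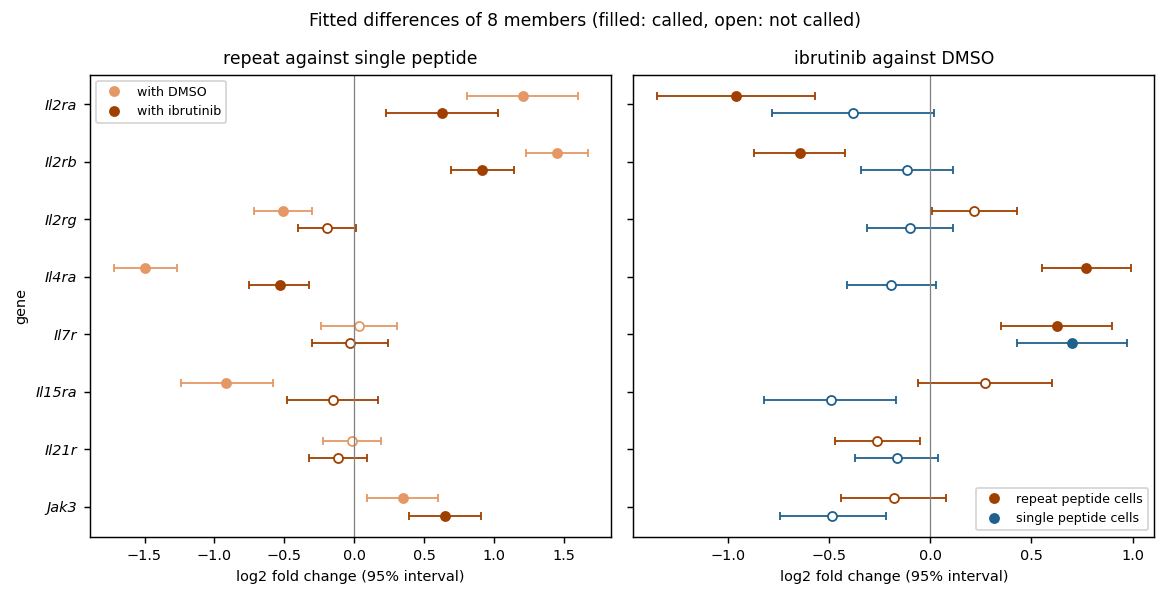
Log2 fold changes of 8 members (Il9r is left out) with approximate 95% intervals, taken from the SE under a normal distribution. The left panel compares repeat with single peptide cells, with DMSO and with ibrutinib, and the right panel ibrutinib with DMSO, in repeat and in single peptide cells. Filled circles passed the threshold. Il7r lies near 0 on the left and between 0.63 and 0.70 on the right.

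Repeat peptide cells with ibrutinib were also set against single peptide cells with DMSO, which shares its libraries with the comparisons above. Here 6 of 9 members were called, against 32.9% of all genes tested. Il2rb stayed 1.75-fold higher (edgeR adjusted p = 1.84e-05) and Il7r was 1.59-fold higher (edgeR adjusted p = 0.000723). Il4ra was 1.65-fold lower (edgeR adjusted p = 4.18e-05) and Il15ra 1.56-fold lower (edgeR adjusted p = 0.00349). The smaller differences of Il2rg (-0.29, edgeR adjusted p = 0.0285) and Il21r (-0.28, edgeR adjusted p = 0.0351) were less stable. The first was lost in 5 and the second in 12 of 18 fits that each left out 1 library. Both were also lost without experiments E and F (edgeR adjusted p = 0.0899 and 0.191), with only the groups compared (0.0816 and 0.0791), with no filter on low counts (0.0674 and 0.0654) and by limma on log2(TPM + 1) (adjusted p = 0.282 and 0.501), and Il21r by limma after TMM rescaling too (0.0689). With the experiment as a block Il21r was not called (-0.18, edgeR adjusted p = 0.0942) and Jak3 was (0.33, edgeR adjusted p = 0.00816), as it was without experiments E and F (0.32, edgeR adjusted p = 0.0264).

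Per length, Il2rg and Il2rb changed places between the stimulations. Il2rg was 3.06 ± 0.254 times as abundant as Il2rb in single peptide DMSO cells (SD over 5 libraries) and 0.743 ± 0.0211 times in repeat peptide DMSO cells (SD over 4 libraries). With ibrutinib the ratio was 1.39 ± 0.201 in repeat peptide cells (SD over 5 libraries) and 3.12 ± 0.393 in single peptide cells (SD over 4 libraries). The repeat peptide ibrutinib libraries, at 1.08 to 1.61, lay between the ranges of repeat and single peptide DMSO libraries, 0.712 to 0.758 and 2.83 to 3.41.

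The ligands of these receptors had few or no counts. Il4 and Il9 had no count in any library. Il2 reached at most 4 counts, Il21 1, Il7 9 and Il15 23, and only Il15 passed the filter on low counts, without a called difference.

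The counts of the pathway lists below stand against 22.8% of all genes tested called higher and 24.2% called lower in repeat than in single peptide DMSO cells. With ibrutinib the shares over all genes were 4.01% higher and 1.92% lower in repeat peptide cells, and 0.351% higher and 2.69% lower in single peptide cells.

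Of 8 kinases and STAT factors of the pathway, 1 was higher and 4 lower in repeat than in single peptide DMSO cells. Jak1, which binds the partner chains, was lower by 0.97 ± 0.13 on the log2 scale (edgeR adjusted p = 5.32e-06). Stat5b was lower by 0.28 ± 0.08 (edgeR adjusted p = 0.00895), while Stat5a differed by 0.03 ± 0.10 (edgeR adjusted p = 0.822). Stat3 was the one that rose, by 0.83 ± 0.12 (edgeR adjusted p = 2.14e-05), and ibrutinib lowered it in repeat peptide cells (-0.61 ± 0.12, edgeR adjusted p = 0.00538). Jak1 with ibrutinib was at 0.41 ± 0.12 over DMSO in repeat peptide cells and was not called (edgeR adjusted p = 0.0569). Stat5a and Stat5b were not called for ibrutinib under either stimulation. With ibrutinib in single peptide cells 1 gene of this list was called lower and none higher.

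Of 6 feedback inhibitors, 2 were higher and 2 lower in repeat peptide DMSO cells. Socs3, an inhibitor of JAK kinases, was lower by 2.67 ± 0.28 (edgeR adjusted p = 3.71e-07) and rose by 1.35 ± 0.26 with ibrutinib in repeat peptide cells (edgeR adjusted p = 0.0043). Ptpn6, the phosphatase SHP-1, was higher by 0.87 ± 0.10 (edgeR adjusted p = 1.48e-06) and fell with ibrutinib in repeat (-0.48 ± 0.10, edgeR adjusted p = 0.00705) and in single peptide cells (-0.69 ± 0.10, edgeR adjusted p = 0.00185). Cish was higher by 1.20 ± 0.18 (edgeR adjusted p = 2.35e-05) and Socs1 lower by 1.02 ± 0.23 (edgeR adjusted p = 0.00123). With ibrutinib in single peptide cells 2 inhibitors of the list were called lower, Ptpn6 among them, and none higher.

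Of 12 textbook target genes of gamma chain cytokines, 3 were higher and 7 lower in repeat peptide DMSO cells, against 47% of all genes called. Gzmb, the cytotoxic protease granzyme B, was higher by 3.04 ± 0.26 and Prdm1, the factor BLIMP-1, by 2.55 ± 0.36. The kinase Pim1 was lower by 1.09 ± 0.12 and the cytokine Osm by 1.77 ± 0.20. In repeat peptide cells ibrutinib changed 4 genes of the list. Gzmb (-1.12 ± 0.25, edgeR adjusted p = 0.011) and Prdm1 (-1.50 ± 0.35, edgeR adjusted p = 0.013) fell. Pim1 (0.59 ± 0.11, edgeR adjusted p = 0.00392) and Osm (0.87 ± 0.19, edgeR adjusted p = 0.0096) rose. With ibrutinib in single peptide cells 3 genes of the list fell, Gzmb, Osm and Pim2, the last named after its values were seen.

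Of 12 factors known to control Il7r, Il2ra or Il2rb, 2 were higher and 6 lower in repeat peptide DMSO cells, against 47% of all genes called in either direction. Foxo1, which activates Il7r, was lower by 1.34 ± 0.14 (edgeR adjusted p = 3.01e-07) and Il7r was not called in that comparison. Eomes, a T-box factor, was lower by 3.64 ± 0.49 (edgeR adjusted p = 6.87e-06), Runx1 by 1.15 ± 0.24 (edgeR adjusted p = 0.000533), and Rel of the NF-kB family was higher by 1.01 ± 0.19 (edgeR adjusted p = 0.000248). With ibrutinib in repeat peptide cells Foxo1 was the 1 factor called, at 0.47 ± 0.13 (edgeR adjusted p = 0.04). In single peptide cells 1 factor was called higher with ibrutinib and none lower.

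Other cytokine receptors of T cells moved in the same comparisons. Of 17 tested, 3 were higher and 12 lower in repeat peptide DMSO cells (22.8% and 24.2% of all genes), with Il6ra (-5.49 ± 0.31), Ifngr2 (-2.46 ± 0.27), Il6st (-2.01 ± 0.15) and Il10ra (-1.41 ± 0.19) lowest. With ibrutinib in repeat peptide cells 6 of them rose and none fell (4.01% and 1.92% of all genes). They were Il6ra (2.56 ± 0.27), Ifngr2 (1.15 ± 0.26), Il10ra (0.83 ± 0.18), Il27ra (0.81 ± 0.11), Il17ra (0.60 ± 0.13) and Ifnar2 (0.60 ± 0.16), with edgeR adjusted p-values from 2.84e-05 to 0.0278. In single peptide cells none rose and 2 fell with ibrutinib, Il12rb1 (-0.84 ± 0.18, edgeR adjusted p = 0.0145) and Il12rb2 (-0.86 ± 0.16, edgeR adjusted p = 0.00743), which were named after their values were seen. Crlf2, which pairs with IL-7R in the receptor for TSLP, was higher in repeat peptide DMSO cells by 0.48 ± 0.13 (edgeR adjusted p = 0.00336). Of the Tec family kinases and others that ibrutinib can bind, Txk was lower by 2.99 ± 0.27 and Tec by 1.15 ± 0.24 in repeat peptide DMSO cells, and Txk rose with ibrutinib in repeat peptide cells by 1.22 ± 0.25 (edgeR adjusted p = 0.00547).

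The tested genes whose log2 CPM followed each member most closely over the 18 libraries, which share groups and experiments, were read as a description. Il2ra was closest to Scd2, Mfhas1 and Slc7a5 (Pearson r from 0.937 to 0.942), and Il2rb to Syna, Rbpj and Myh10 (0.977 to 0.98). Il4ra was closest to Nin, Ripor2 and Smad3 (0.967 to 0.98), and Il2rg to Cyfip2, Tln1 and Abcc4 (0.927 to 0.945). The likeness was weakest for Il7r, closest to Abtb1, Pard6b and Tmem8 (0.789 to 0.836). After subtraction of group means Il7r was closest to Arid4a, Arid4b and Dgka (0.883 to 0.922). Without that subtraction, Il15ra was closest to Gbp8, Uba7 and Gbp9 (0.918 to 0.93) and Il21r to Ehbp1l1, Dot1l and Nfkbid (0.846 to 0.861). Jak3 was closest to Palb2, Atp10a and Cep85 (0.919 to 0.93), and Il9r to Faxc, Spint1 and Tfrc (0.961 to 0.978). Il9r passed the filter on low counts through repeat peptide cells and had 0 to 3 counts in single peptide libraries. Its likeness therefore carries that contrast between the stimulations and is not read further.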

How the data were processed

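Gene expression was measured by RNA-seq of polyadenylated RNA in 18 libraries. The authors trimmed the reads with Trim Galore, mapped them to GRCm38 with RSEM 1.3.1 and STAR, and deposited a gene table per library with expected counts, which need not be whole, TPM, which the authors scaled to an equal total in each library, and effective lengths in bases. The deposited effective lengths served only in an offset. Total expected counts per library ranged from 23445922 to 51995372 (median 27420965).

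Expected counts were rounded. Gene names, coordinates and gene types came from GENCODE M21, and 27903 protein-coding or lncRNA genes were kept. With edgeR 4.0.16 in R 4.3.3, genes passing filterByExpr (12255) were TMM normalized and all groups were fitted together with glmQLFit (robust) and compared with glmQLFTest, with Benjamini-Hochberg adjustment over all of them. The scripts were tested on simulated data. No library differed from others of its group by as little as sampling noise. The replicates are cultures of separate experiments per the labels. Libraries of the same experiment in different groups deviated together from the group means (24 pairs, correlations 0.16 to 0.494, median 0.325). Libraries of different experiments and groups overlapped this range (97 pairs, -0.44 to 0.404, median -0.076). The experiments were taken to pair the libraries, as the genotype entry of the labels has it. The study names no block, so the fit with a block is an alternative.

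Alternatives were DESeq2 size factors, DESeq2 1.42.0, no low-count filter, other thresholds, the block, only the groups compared, a length offset, limma 3.58.1 on log2(TPM + 1), no experiments E and F, each library left out, and, chosen after seeing the data, limma after TMM rescaling of TPM. All members were named in each comparison. Of the pathway lists, the genes called for ibrutinib in repeat peptide cells, up to 4 per list with the largest difference between stimulations, the ligands, Jak1, Stat5a and Stat5b were named. The members and lists were chosen with earlier results of these data known. Promoter sequences were taken from RefSeq and the motifs were chosen with them in view.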

Additional observations from a re-analysis of the deposited data

Results flagged for a closer look

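The ibrutinib effects on Il4ra under the 2 stimulations differed, with an interaction of 0.96 on the log2 scale (SE 0.16, edgeR adjusted p = 0.00324). Il4ra was higher with ibrutinib in 4 of 4 experiments of repeat peptide cells and lower in 4 of 4 of single peptide cells, and only the first of these effects was called. Repeat peptide DMSO library A, at 3971 normalized counts of Il21r, stood apart from the other 3 libraries of its group at 4559 to 4665. It was the 1 library found in 36 sets of a member and a group, each tested at Dixon's 95% critical value, where chance flags about 1 in 20.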

How the results depend on the processing

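Of 1554 values of single members under the alternatives, 1450 kept their direction and their side of the threshold, 63 lost a call, 18 gained one and 23 changed sign. Counts in parentheses are those of the report. All genes called for ibrutinib in repeat peptide cells (726) were 237 at an absolute log2 fold change above 1, 1165 with DESeq2, 391 with limma on log2(TPM + 1), 464 when only the groups compared were fitted, 1694 with the experiment as a replicate block and 354 to 874 with a library left out. In single peptide cells (373) they were 202, 612, 161, 181, 1114 and 131 to 460, and 248 by limma after TMM rescaling of TPM, chosen after seeing the data. For the difference of effects (154) they were 350 with DESeq2, 77 with limma, 679 with the block and 84 to 171 with a library left out. Between stimulations the threshold of 1 gave 1994 with DMSO (5765) and 1461 with ibrutinib (4703, and 2994 with limma), and 1109 for repeat peptide ibrutinib against single peptide DMSO (4028, and 2493 with limma).

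Members called at that threshold were 3 of 9 for repeat against single peptide with DMSO and 0 in the other 5 comparisons, where Il7r and Il4ra, among others, change less than 2-fold. Members called for ibrutinib in repeat peptide cells (4) were 2 with limma on TPM. In single peptide cells (1) they were 2 with DESeq2 size factors, 3 with DESeq2, 0 with limma, 2 with the block, 2 without experiments E and F and 0 to 2 with a library left out. For the difference of effects (1) they were 3 with DESeq2, 0 with limma and 2 with the block. The block changed no other call of a member than those given beside the results, and the cause of the other changes was not tested.

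Signs turned only in values that were not called. Il15ra for ibrutinib in repeat peptide cells was -0.011 with the length offset and -0.099 with limma. Il21r between stimulations with DMSO was 0.16 with limma, 0.047 with the block, 0.037 without experiments E and F, and -0.072 to 0.037 with a library left out, and with ibrutinib it was 0.034 with limma. Il7r was 0.11 between stimulations with ibrutinib by limma, and with a library left out it was -0.039 to 0.122 between stimulations with DMSO, -0.092 to 0.076 with ibrutinib and -0.13 to 0.039 for the difference of effects. Il9r for ibrutinib in single peptide cells was -0.17 with the length offset, -0.047 by limma with and without rescaling, and -0.47 to 0.92 with a library left out. Il9r had at most 66 counts in a library and the ligands at most 23, so their values carry a large counting error, and whether more depth or more cultures would change a call was not tested.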
